A study of Danio rerio with 82 samples.

Results

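A set of 10 genes around the anaphase-promoting complex was followed through oocyte growth in zebrafish (Danio rerio): the coactivators cdc20 and fzr1, the inhibitor fbxo5, the checkpoint genes mad2l1 and bub1, the separase gene espl1, and the core subunit genes anapc1, anapc2, anapc10 and anapc11. They were chosen by symbol. All 10 of 10 symbols were found, each at 1 locus, among 28405 loci with 27564 distinct symbols. The 4 libraries are poly(A) RNA-seq of stage I, II, III and IV oocytes, 1 library per stage within a series of 82 samples. The oocytes came from ovaries of adult females of the wild-type Tu strain, with no further treatment or allele named. They were picked apart by morphology, and follicle cells were detached as far as possible. The labels call stage I cells G1-phase, stage II cells S-phase, stage III cells prophase I and stage IV cells metaphase I oocytes, names that no value here tests. The labels give neither the fishes' ages nor how many fish or oocytes went into a library.

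The anaphase-promoting complex (APC/C) is a ubiquitin ligase of many subunits that sends cyclin B and securin to the proteasome. Securin holds separase, the protease that cuts the cohesin rings joining sister chromatids, so the complex sets both chromosome separation and exit from division. The coactivator Cdc20 recruits targets at the metaphase to anaphase switch, and Fzr1, also called Cdh1, does so later and in resting cells. In mouse oocytes Fzr1 helps to hold prophase arrest by keeping cyclin B1 low. The spindle checkpoint proteins Mad2 and Bub1 restrain Cdc20 until chromosomes are attached. The F-box protein Emi1, encoded by fbxo5, inhibits the complex in interphase, and its relative Emi2, encoded by fbxo43, holds vertebrate eggs in metaphase arrest before fertilization.

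Values are FPKM (fragments scaled to transcript length and to the library's mapped fragments), each with the authors' lower and upper bound for that library. FPKM is scaled to transcript length, so levels can be set side by side between genes. Read as counting error alone, the bounds correspond to at least 6260349, 6606980, 6572489 and 6201816 fragments in stages I to IV. No stage was replicated, so differences have no replicate check and no p-value, and higher and lower describe these libraries. A gene is called higher or lower where log2(FPKM + 1) differed by at least 1, a 2-fold change on that scale, among loci whose mean over the 4 libraries reached 1 FPKM. With stage IV set against stage I, 7 of 10 tested oocyte markers were lower and 1 was higher. The egg coat genes zp3a.1, at 3105 and 80.7 FPKM in stages I and IV, and zp2.2, at 482 and 12.4, and the maternal factor gene zar1, at 836 and 21.7, were among the lower ones. Of the others vasa was at 88.9, 112, 57.3 and 57.6 FPKM and dazl at 73.1, 68.8, 42.7 and 432 in stages I to IV, while figla, which was not among those tested, was listed at 0 in every library. Markers of other ovarian cells were lower by the same comparison in 10 of 13 tested granulosa and theca genes, 9 of 9 stroma and smooth muscle genes and 10 of 11 blood genes. Over all tested loci 44.4% were lower and 19.1% higher in that comparison. The summed FPKM of the 15 measured granulosa and theca markers was 507, 367, 703 and 206 in stages I to IV. Nearly all of the stage IV sum was from the steroid enzyme genes cyp11a1, with 224 and 170.5 FPKM at stages I and IV, and cyp17a1, at 74.7 and 33.8, and each of the other 13 was at 0.636 FPKM or less in stage IV. For 10 measured stroma markers the sum was 275, 87.0, 284 and 3.58, and for 11 measured blood markers 173, 106, 209 and 12.4. In stage IV the granulosa and theca genes foxl2, inhbaa, inhbb, fshr, lhcgr and star and the macrophage gene mpeg1 were listed at 0, as was the stroma gene lum, which was also at 0 in stages II and III. The part of these cells in the differences below was not tested, and in these bulk libraries fewer cells of a type and less RNA per cell cannot be told apart.

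Stage IV was set against stage I to ask how the poly(A) transcripts of this machinery differ between the ends of the series. Whether the poly(A) tails themselves differed between stages was not tested. Of the 10 genes, 3 were higher in stage IV (cdc20, espl1 and mad2l1) and 4 were lower (fbxo5, fzr1, anapc1 and anapc2). The remaining 3, bub1, anapc10 and anapc11, differed by less than this 2-fold rule. Of the 14109 loci tested, which include all 10 genes, 19.1% were higher and 44.4% were lower by the same rule. The shares among the 10 genes lie near this background, so the counts show nothing particular to them. By the authors' bounds 4 genes were apart upwards and 5 downwards, against 27.4% and 53.1% of all loci, and anapc11 alone overlapped. The median difference was -0.38 for the 10 genes and -0.75 for all tested loci. With median-of-ratios scaling the median of all loci moved to -0.05, with 31.8% higher and 31.8% lower, and anapc10 joined the higher genes. A fixed sum without mitochondrial genes, with 22.4% of all loci higher and 41.6% lower, also added anapc10. Under both other scalings tried, the 4 lower genes stayed lower and the 3 higher genes stayed higher.

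**Figure D1:**
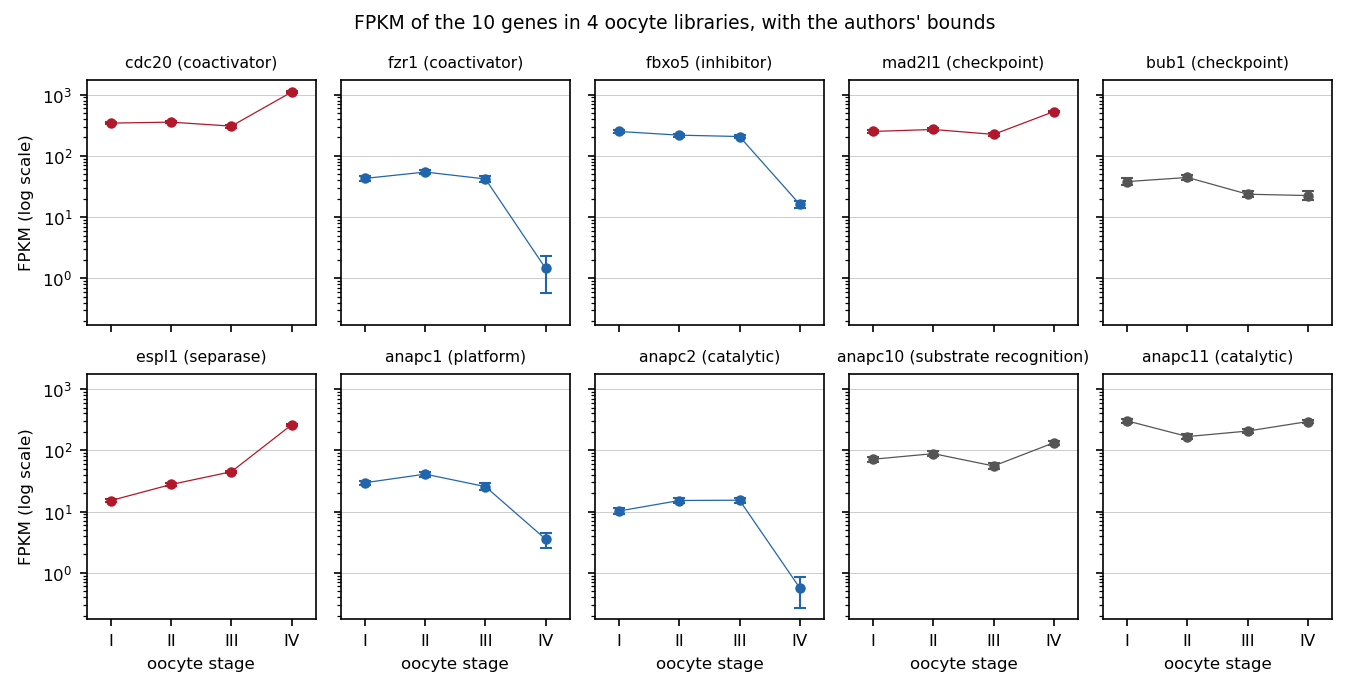
FPKM (log axis) of the 10 genes in the stage I, II, III and IV libraries; points are the deposited values, bars the authors' bounds, and lines only join the points. Red marks genes higher and blue genes lower in stage IV against stage I by the 2-fold rule, grey the rest. For fzr1, fbxo5, anapc1 and anapc2 the stage IV point lies below the other 3, while espl1 is higher at each stage.

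The coactivator genes diverged in stage IV. The gene cdc20 (danRer7 chromosome 2, 19218016 to 19234798) had an FPKM of 343 (bounds 327 to 359), 356 (339 to 372), 306 (291 to 321) and 1100.4 (1059 to 1142) over stages I, II, III and IV. Stage IV was the highest of the 4, with bounds that overlapped none of the other libraries. Its FPKM was 3.21 times that of stage I, with 2.95 to 3.49 times allowed by the bounds, a difference of 1.68 in log2(FPKM + 1). The level of cdc20 was above that of 98.7% of all loci in stage I and, in stage IV, of 99.8%, where it ranked 53 among all loci.

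The gene fzr1 (chromosome 8, 21401043 to 21414580) went the other way. Its FPKM was 42.8 (bounds 39.4 to 46.3), 54.4 (49.7 to 59.1) and 41.9 (37.4 to 46.5) over stages I to III, then 1.45 (0.581 to 2.32) in stage IV. Stages I and III overlapped by their bounds, stage II lay above both, and stage IV lay below all of them with its bounds apart. The stage I FPKM was 29.6 times that of stage IV, with 17.0 to 79.7 times allowed by the bounds. The difference of -4.16 in log2(FPKM + 1) was at percentile 1.88 of all tested loci, the lowest of the 10 genes. With 5 instead of 1 added to each FPKM, the fzr1 difference was -2.89 and that of fbxo5 was lower, at -3.59. Only 11.1 fragments correspond to the bounds of the stage IV value, so its size is loosely fixed. In RefSeq's GRCz12tu gene table fzr1 is a synonym of fzr1a, and that table also names a second copy, fzr1b, for which no value is given here. The sources used here do not say how reads shared by such copies were divided.

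The ratio of cdc20 to fzr1 within a library does not depend on how the library was scaled. It was 8.00 (7.07 to 9.11 by the bounds) in stage I, 6.54 (5.74 to 7.48) in stage II, 7.29 (6.25 to 8.60) in stage III and 759 (457 to 1965) in stage IV. The ranges of the first 3 ratios overlapped one another, and that of stage IV lay far above them. In every library the cdc20 value was above that of the fzr1 locus. The second copy, fzr1b, has no value here, so the ratio does not cover it.

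The inhibitor gene fbxo5 (chromosome 13, 47400088 to 47413346) had 250.3 (bounds 238 to 263), 218 (207 to 229), 207 (196 to 218) and 16.2 (14.1 to 18.3) FPKM over the 4 stages in order. Its level was above that of 98.4% of all loci in stage I and of 83.1% in stage IV, its lowest library. The stage I value was 15.5 times that of stage IV (13.0 to 18.7 by the bounds), and the difference of -3.87 was at percentile 3.05 of all tested loci. The ratio of fbxo5 to fzr1 was 5.85 (5.14 to 6.67), 4.00 (3.49 to 4.61), 4.94 (4.22 to 5.83) and 11.2 (6.06 to 31.5) in stages I to IV. The stage IV range of this ratio overlaps that of stage I, so from stage I to stage IV the bounds do not set apart how much lower the inhibitor and the coactivator transcripts were. It lies above the ranges of stages II and III.

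Emi2's gene fbxo43 (chromosome 16, 58172415 to 58189261), named for its role, measured 157 (bounds 147 to 167), 142 (133 to 151), 70.9 (64.9 to 76.8) and 641 (616 to 666) FPKM in stages I to IV. Its lowest library was stage III and its highest stage IV. The ratio of fbxo43 to fbxo5, chosen after the values were seen, was 0.626 (0.559 to 0.700) in stage I, 0.652 (0.581 to 0.730) in stage II, 0.342 (0.298 to 0.391) in stage III and 39.7 (33.7 to 47.4) in stage IV. Among poly(A) transcripts, those of fbxo5 were thus the more abundant in stages I to III and those of fbxo43 in stage IV.

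**Figure D2:**
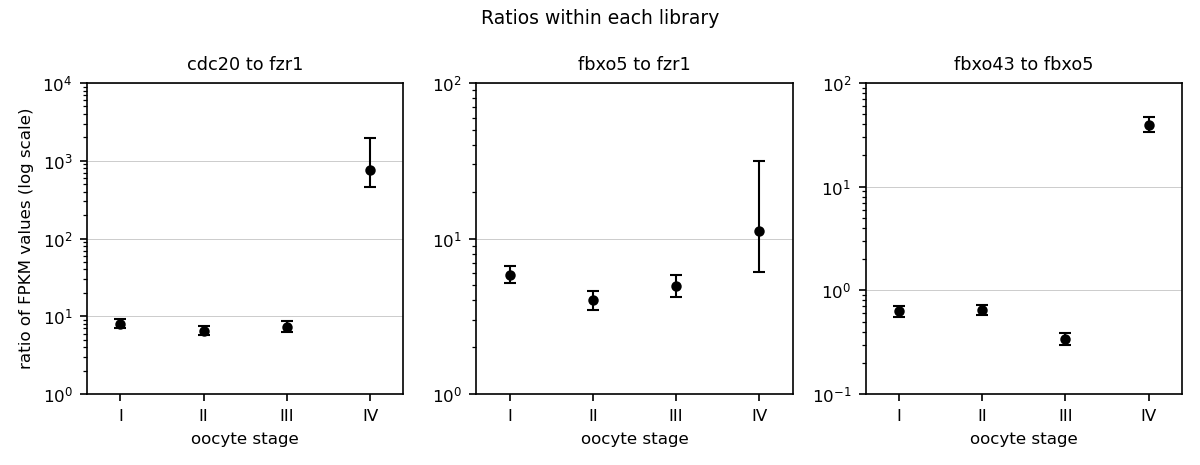
Ratios of FPKM values within each library (log axes that differ between panels) for cdc20 to fzr1, fbxo5 to fzr1 and fbxo43 to fbxo5 in stages I to IV; bars span the ratios that the authors' bounds allow. The cdc20 to fzr1 ratio is between 6.54 and 8.00 in stages I to III and 759 in stage IV.

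Of 6 tested genes in a list of other regulators of the complex, 1 was higher (fbxo43) and 3 were lower in stage IV against stage I. The list median was -0.74, against -0.75 for all tested loci, of which 19.1% were higher and 44.4% lower. The kinase gene mos, which sustains metaphase arrest in vertebrate eggs through the MAP kinase pathway, was 464 FPKM at first and 31.4 in stage IV. The tumour suppressor homologue rassf1, which encodes a microtubule-binding protein, was at 24.3 and 2.49, and the phosphatase gene cdc14b at 143 and 43.6. With median-of-ratios scaling the list median was 0.09, with 3 higher and 2 lower, against 31.8% and 31.8% of all loci.

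Of the checkpoint genes, mad2l1 (chromosome 7, 58874321 to 58882730), whose product binds and restrains Cdc20, stood at 251 (bounds 239 to 262), 269.7 (258 to 282), 224 (213 to 235) and 529 (512 to 545) FPKM over stages I, II, III and IV. Stage IV was again the highest library, at 2.11 times stage I (1.95 to 2.28 by the bounds), and the difference of 1.07 lay just past the rule. The kinase gene bub1 (chromosome 20, 2639203 to 2669899) had no such maximum. Its levels were 38.0 (33.2 to 42.8), 44.4 (40.0 to 48.7), 23.6 (21.0 to 26.3) and 22.5 (18.8 to 26.2) FPKM in stages I to IV. Stages III and IV overlapped by their bounds, as did stages I and II, and the later pair was the lower one. The stage IV against stage I difference of bub1, -0.73, was 0.11 with median-of-ratios scaling, so its direction depends on the scaling. The same holds for bub1 in stage IV against stage III, at -0.07 and 0.82.

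Among 16 other tested genes of the checkpoint and of the kinetochore it reads, 6 were higher and 6 lower in stage IV against stage I. Their median was -0.21. Over all tested loci 19.1% were higher and 44.4% lower, with a median of -0.75. The list median was 0.63 with median-of-ratios scaling and 0.07 with a fixed sum without mitochondrial genes, against -0.05 and -0.59 for all loci. The gene mad1l1, whose product loads Mad2 at kinetochores, was at 30.5 (bounds 28.0 to 33.0) and 158 (151 to 165) FPKM. The gene nuf2, for a subunit of the microtubule-binding Ndc80 complex, was at 80.7 (73.5 to 88.0) and 9.13 (7.18 to 11.1). Its partner ndc80, chosen after the values were seen, was at 53.9 (49.7 to 58.0) and 131 (124 to 139). The other subunit genes of that complex, spc25 and spc24, differed by 1.78 and 0.60, the second within the rule. Of the complex nuf2 alone was lower. The gene zwilch was at 20.5 and 3.63 FPKM, and bub1ba, for a BubR1-type checkpoint kinase, at 28.7 and 7.45. The other such copy, bub1bb, at 20.3 and 15.8, differed by -0.34, within the rule.

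The 4 core subunit genes among the 10 split into 2 with a stage IV minimum and 2 without. The platform gene anapc1 (chromosome 13, 47465307 to 47633810), for the largest subunit, showed 29.6 (bounds 27.2 to 31.9), 40.8 (37.2 to 44.4), 25.5 (22.3 to 28.7) and 3.53 (2.56 to 4.50) FPKM in turn. The cullin gene anapc2 (chromosome 5, 62867205 to 62892202), for the scaffold of the catalytic core, was at 10.2 (8.97 to 11.4), 15.1 (13.6 to 16.7), 15.3 (13.8 to 16.9) and 0.566 (0.266 to 0.867). For both genes stage IV lay below the other libraries, and the bounds did not overlap. The stage I values were 8.38 times (6.05 to 12.5) and 18.0 times (10.4 to 43.0) those of stage IV. For anapc1 and anapc2 the stage IV bounds correspond to 52.9 and 14.2 fragments.

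The RING subunit gene anapc11 (chromosome 6, 19659535 to 19665320), whose product forms the catalytic core with that of anapc2, was at 302 (bounds 281 to 323), 168 (152 to 183), 206 (189 to 224) and 295 (274 to 316) FPKM. Stages I and IV overlapped by their bounds, and stage II was the lowest. The stage IV against stage I difference was -0.03, and 0.83 with median-of-ratios scaling, so its direction depends on the scaling. The anapc11 level was 29.6 times that of anapc2 in stage I, 11.1 times in stage II and 521 times in stage IV. In stage IV anapc2 was at 0.566 FPKM (0.266 to 0.867). This ratio was not planned, and in these stages the pair was the highest and the lowest of 14 core subunit genes. The substrate receptor gene anapc10 (chromosome 23, 43886430 to 43892239) was at 71.5 (64.2 to 78.8), 88.2 (80.2 to 96.1), 55.4 (49.4 to 61.5) and 133 (123 to 143). Its stage IV value stood above the other libraries by its bounds, with a difference of 0.88 from stage I that did not reach the rule and one of 1.24 from stage III that did. The difference from stage I passed the rule under both other scalings, at 1.74 with median-of-ratios and 1.17 with the fixed sum.

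All 14 measured core subunit genes, the 4 above and 10 others, were then set side by side. In stage IV, 6 were lower than at first, 1 was higher and 7 were between. The median was -0.69 against -0.75 for all tested loci, of which 44.4% were lower and 19.1% higher. The platform genes were lower in 3 of 3 cases: besides anapc1, anapc4 was at 21.9 (bounds 19.3 to 24.4) and 1.32 (0.676 to 1.97) FPKM, and anapc5 at 21.6 (19.7 to 23.5) and 1.73 (1.18 to 2.28). In the arm of tetratricopeptide (TPR) subunits that holds the coactivator, cdc23 was lower, at 19.8 and 1.69, while cdc16, cdc27 and anapc7 stayed within the rule, at 55.4 and 33.4, 113 and 116, and 16.9 and 10.3. Among the small subunits cdc26 was lower, at 129.5 and 53.9, and anapc13 higher, at 64.2 and 140.1. With either other scaling cdc26 did not reach the rule. The genes anapc15 and anapc16 lay between, with differences of 0.30 and 0.93. The highest and the lowest core subunit levels were 29.6-fold apart in stage I, 11.1-fold in stage II, 13.9-fold in stage III and 521-fold in stage IV. The last of these rests on anapc2, at 0.566 FPKM with bounds of 0.266 to 0.867, so its size is loosely fixed. With median-of-ratios scaling 5 were lower and 4 higher, and the median was 0.14. Over all loci 31.8% were lower and 31.8% higher with that scaling, with a median of -0.05.

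**Figure D3:**
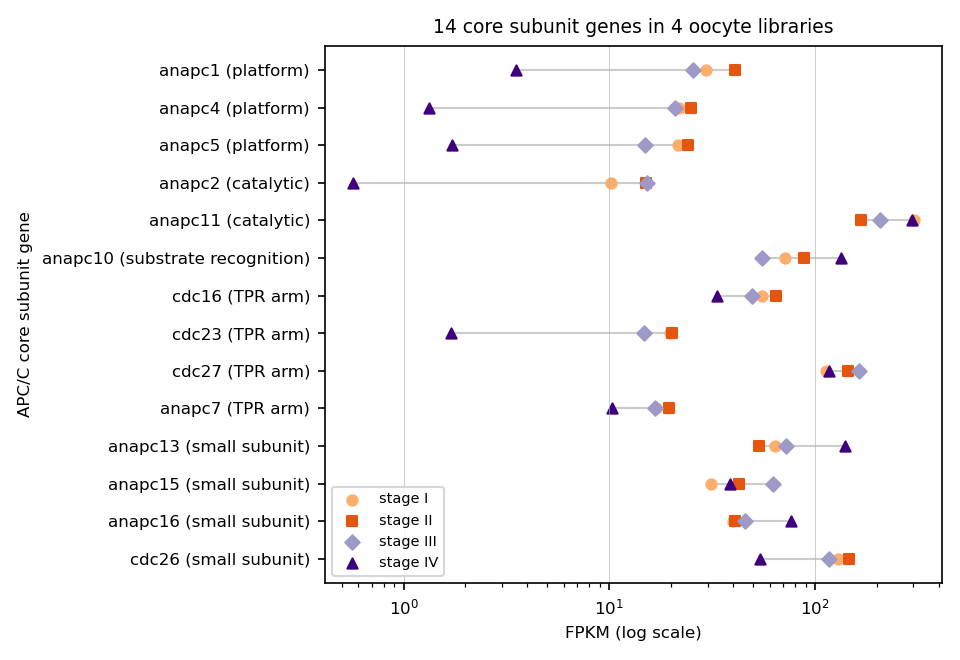
FPKM (log axis) of the 14 core subunit genes of the complex in the stage I, II, III and IV libraries, 1 point per library, with the part each subunit plays in brackets. Stage IV triangles lie far to the left for anapc1, anapc4, anapc5, anapc2 and cdc23, and the 14 levels span 521-fold in stage IV against 29.6-fold in stage I. The stage IV span rests on the low value of anapc2.

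The separase gene espl1 (chromosome 6, 39599714 to 39631829) differed between all libraries, from 15.1 (bounds 14.1 to 16.1) to 27.6 (26.1 to 29.2), 44.6 (42.6 to 46.7) and 261 (252 to 269) FPKM. Among the 10 genes it was the only one whose level was higher at each stage than at the one before, with bounds apart at every step. Stage IV was 17.2 times stage I (15.6 to 19.0 by the bounds), and the difference of 4.02 was at percentile 99.8 of all tested loci. By level it stood above 77.4% of all loci at first and 98.3% at the end.

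The securin gene pttg1, named for its role, was low throughout. Its FPKM was 2.5 (bounds 1.03 to 3.98), 0.189 (0 to 0.894), 0.953 (0 to 2.02) and 4.31 (2.35 to 6.28) over the stages. The ratio of espl1 to pttg1 was 6.04 (3.55 to 15.7 by the bounds) in the first stage and 60.4 (40.1 to 115) in the last. For stages II and III the bounds give only lower limits, 29.2 and 21.1. In the list of securin and shugoshin genes, 2 of 4 tested were higher in stage IV and 0 lower, with a median of 1.17. Of all tested loci 19.1% were higher and 44.4% lower, with a median of -0.75. The 2 higher genes were SGOL1, a protector of centromeric cohesin, at 14.1 and 73.9 FPKM, and pttg1ipb, for a securin-interacting protein, at 145 and 489.

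Cohesin, the target of separase, was read as genes for its subunits and regulators, of which 10 of 16 measured reached the minimum mean. Against stage I, 8 were higher in stage IV and 2 lower, with a median of 2.49, against 19.1%, 44.4% and -0.75 for all loci. With median-of-ratios scaling 8 were higher and 2 lower, with a median of 3.34, against 31.8%, 31.8% and -0.05. A fixed sum without mitochondrial genes left 11 tested, 8 higher and 3 lower, with a median of 2.59, against 22.4%, 41.6% and -0.59. The ring gene smc3 was at 20.5 (bounds 19.4 to 21.6) and 205 (202 to 209) FPKM. The mitotic kleisin gene rad21a, whose symbol occurs at more than 1 locus and is given here at the higher, was at 9.01 and 78.9, and stag1b at 16.5 and 143. The meiotic subunit gene STAG3 was at 17.1 (14.4 to 19.8) and 0.293 (0 to 0.631). The other lower gene was rad21l1, for a meiotic kleisin, at 15.1 (12.5 to 17.7) and 2.65 (1.11 to 4.19). The genes for Rec8, the meiotic kleisin that separase cuts at the meiotic divisions, were near 0. The gene rec8a was listed at 0 in stages I to III and at 0.334 in stage IV, and rec8b was at 0.0424 in stage I, 0.0427 in stage IV and 0 between.

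The ubiquitin-conjugating (E2) enzyme genes that work with the complex were higher in 3 of 6 cases and lower in 1, with a median of 0.96. Among all tested loci 19.1% were higher and 44.4% lower in stage IV against stage I, with a median of -0.75. The chain-starting enzyme gene ube2c was at 286 (bounds 267 to 304) and 683 (647 to 719) FPKM in stages I and IV, and the chain-extending UBE2S at 75.7 (72.1 to 79.2) and 241 (234 to 248). The gene ube2d1a was at 26.9 and 93.7, while ube2d3 was at 96.7 and 19.8.

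Of 17 tested genes for known targets of the complex, 8 were higher and 1 lower when stage IV was set against stage I. Their median was 0.86 against -0.75 for all tested loci, of which 19.1% were higher and 44.4% lower. The kinesin genes kif11 and kifc1 were at 91.2 and 506 FPKM and at 51.9 and 196. The mitotic kinase gene plk1 was at 669 and 2544 and the cyclin gene ccnb2 at 595 and 2095. The lower gene was cdca5, for the cohesin protector sororin, at 35.8 and 16.4, and its difference of -1.08 was just past the rule. With median-of-ratios scaling 12 were higher and 0 lower, against 31.8% and 31.8% of all loci. Of 6 genes for the chromosomal passenger complex and the kinase Cdk1, 2 were higher and 2 lower in the deposited values, with a median of 0.34. For all tested loci these were 19.1%, 44.4% and -0.75. The survivin gene birc5a was at 44.3 and 283 and INCENP at 121 and 357, while the borealin gene cdca8 was at 255 and 33.3 and cdk1 at 84.1 and 29.8. The rest of the list stayed within the rule: birc5b, the other survivin copy, was at 613 and 677, and cdca9 at 247 and 356.

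**Figure D4:**
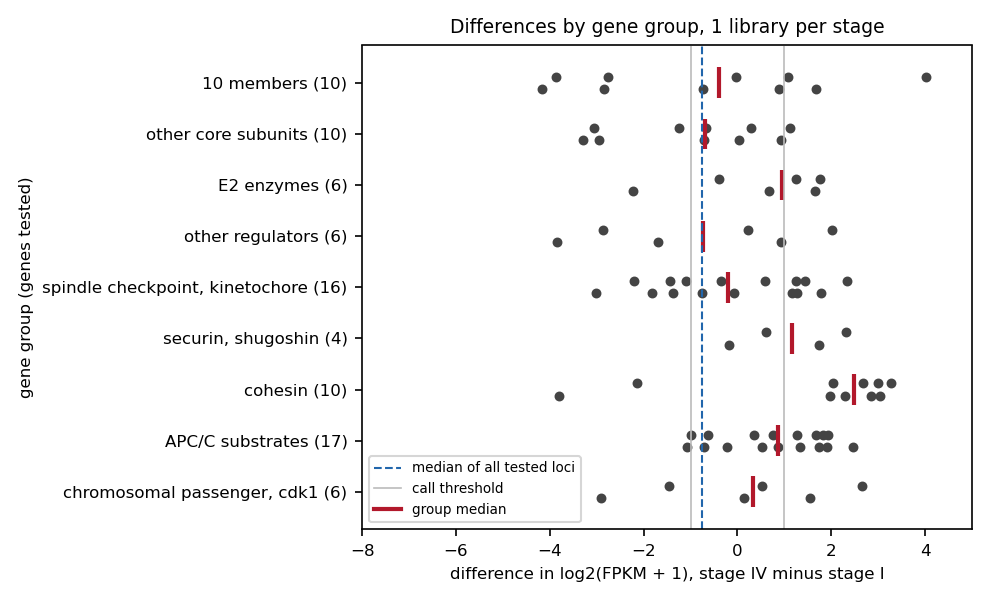
Differences in log2(FPKM + 1) between the stage IV and stage I libraries for the 10 genes and 8 related gene groups; each point is 1 gene with a mean of at least 1 FPKM, offset up or down only to separate points. Red bars are group medians, the dashed line the median of all tested loci at -0.75, and the grey lines the rule at 1 and -1; cohesin genes have the highest median, 2.49.

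The steps between successive stages were compared next. From stage I to stage II 0 of the 10 genes passed the 2-fold rule in either direction, where 2.67% of all tested loci were higher and 3.15% lower. With median-of-ratios scaling 0 genes were higher and 1, anapc11, lower, against 1.41% and 4.05% of all loci. With the fixed sum 1, espl1, was higher and 0 lower, against 6.02% and 2.82%. The bounds of 5 genes lay apart upwards and those of 2 downwards, against 33.6% and 10.8% of all loci. The largest differences were those of anapc11, at -0.84, and espl1, at 0.83. From stage II to stage III again 0 genes passed the rule, against 8.67% of all loci higher and 7.5% lower. With median-of-ratios scaling there were again 0, against 9.30% and 4.94%, and with the fixed sum 0 were higher and 1, bub1, lower, against 8.70% and 11.3%. In the deposited values the bounds lay apart upwards for espl1 and anapc11 and downwards for 6 genes, of which bub1 differed most, at -0.88, and the shares of all loci were 22.6% and 31.3%. Over the same step markers of other cells were higher in 6 of 13 granulosa and theca genes, 6 of 9 stroma genes and 7 of 11 blood genes.

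From stage III to stage IV 4 genes were higher (cdc20, espl1, mad2l1 and anapc10) and 4 lower (fbxo5, fzr1, anapc1 and anapc2), against 16.4% and 46% of all loci. With median-of-ratios scaling 5 were higher, anapc11 being added, and 4 lower, against 30.8% and 31.7%. The differences were 1.84 for cdc20, 2.52 for espl1, 1.23 for mad2l1 and 1.24 for anapc10. For the lower genes they were -3.60 for fbxo5, -4.13 for fzr1, -2.55 for anapc1 and -3.38 for anapc2. By the bounds 5 genes, anapc11 included, lay apart upwards and 4 downwards, against 25.7% and 54.6% of all loci. The median was 0.22 for the 10 genes and -0.82 for all loci. Markers of other cells were lower in 11 of 13 granulosa and theca genes, 9 of 9 stroma genes and 11 of 11 blood genes. The part of these cells in the calls was not tested. This step shares the stage IV library with the comparison against stage I, so the 2 sets of calls are not independent.

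The order of the levels was much the same in the first stages. In stages I, II and III cdc20 had the highest FPKM and anapc2 the lowest. The genes mad2l1, fbxo5 and anapc11 followed cdc20 in changing order, then anapc10. In stage I mad2l1 and fbxo5 had overlapping bounds, as did fzr1 and bub1, and in stage II bub1 and anapc1 did. In stage III the bounds of mad2l1 and fbxo5, of fbxo5 and anapc11, of espl1 and fzr1, and of anapc1 and bub1 overlapped. In stage IV the order was cdc20, mad2l1, anapc11, espl1, anapc10, bub1, fbxo5, anapc1, fzr1 and anapc2, and fzr1 and anapc2 were the only neighbours whose bounds overlapped. The highest and the lowest of the 10 levels were 33.6-fold apart in stage I, 23.5-fold in stage II, 20.0-fold in stage III and 1943-fold in stage IV. The stage IV spread rests on anapc2, at 0.566 FPKM with bounds of 0.266 to 0.867, so its size is loosely fixed.

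The shapes over the 4 libraries were compared as the root mean square difference of log2(FPKM + 1), after each gene's own mean was subtracted. Within the 10 genes the closest pair was mad2l1 and anapc10, at 0.16, followed by cdc20 and mad2l1, at 0.27, fbxo5 and fzr1, at 0.31, and anapc1 and anapc2, at 0.33. Among all tested loci the shape of fbxo5 was most like those of chtf8 (0.020), bysl (0.065) and tusc2b (0.072). The nearest to fzr1 were eif2s1a (0.030), CU062628.1 (0.035) and cnot3a (0.048). The nearest to espl1 were UHRF2 (2 of 3) (0.11), stk11ip (0.11) and setd2 (0.16), so espl1 had no neighbour as close as fbxo5 and fzr1 had. These likenesses rest on 4 libraries and are a description only.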

How the data were processed

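Poly(A) RNA of oocytes of 4 stages was sequenced, 1 library per stage. The values are FPKM as the authors deposited them, with bounds on both sides and a quality status in each row, and all 10 genes had the status OK in every library. Per the submitters' processing notes the tools were Bowtie2 2.2.2, Bismark, STAR 2.5.3a and Trim Galore, with no roles stated, and the build was danRer7. Which program made the FPKM values, and whether it used strand, the sources used here do not give. Selection by the poly(A) tail makes each value a measure of tailed transcripts.

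Files were joined on symbol and locus in Python 3.11.15 with pandas 2.3.3 and numpy 2.4.6. Starts were raised by 1 to count bases from 1, after a check on mitochondrial genes, where the length without that base divided by 3 in 10 of 13. None of the 10 loci overlapped another listed locus. No read counts were used: a value F with upper bound F + h was given (2F/h) squared fragments, those that counting alone would need, which is a lower limit where other error widens the bounds. Differences are in log2(FPKM + 1), with a pseudocount of 1, among loci whose mean reached 1 FPKM, and this scale understates changes of low genes. The calls were tested on simulated data. That was a check of the code only, and how much libraries of the same stage vary was not tested. With 1 library per stage no significance test between stages was run. Ranges of ratios set the lower bound of 1 value against the upper bound of the other.

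Alternatives were pseudocounts of 0.1 and 5, no filter or a mean of at least 10, 2 other scalings, a 4-fold rule, and bounds that must lie apart. From each gene list, at most the 4 called genes with the largest difference are given values, besides pttg1, fbxo43, ube2c, UBE2S, rec8a and rec8b. Exceptions chosen after their values were seen are ndc80, spc24, spc25, bub1bb, ccnb1, cdca5, birc5b, cdca9, rad21l1, vasa, dazl, figla, cyp11a1, cyp17a1, pcna and ccnd1. So are the core subunits cdc16, cdc27, anapc7, anapc13, anapc15 and anapc16, and the markers listed at 0. The genes, lists and rules were chosen with earlier results of these data known. Protein and promoter sequences were not used here, so a planned search of them was not made.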

Additional observations from a re-analysis of the deposited data

How the results depend on the processing

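Of the 10 genes, fbxo5, fzr1, anapc1 and anapc2 were lower in stage IV than in stages I and III under every alternative run, and espl1 was higher. With a 4-fold rule the number of higher genes was 1 in stage IV against stage I and 1 in stage IV against stage III, espl1 in both. By that rule 6.75% and 5.04% of all tested loci were higher in these comparisons, and 22.3% and 23.9% were lower. The lower shares were largest with a pseudocount of 0.1, at 49.4% and 50.1%. Whether 4 lower genes of 10 differs from these shares was not tested. With median-of-ratios scaling 1 gene, anapc11, was lower in stage II than in stage I. With a fixed sum without mitochondrially encoded genes 1 gene, espl1, was higher in stage II than in stage I, and 1, bub1, was lower in stage III than in stage II. For these last 3 genes the deposited values gave differences of -0.84, 0.83 and -0.88, close to the threshold. The other counts among the 10 genes stayed within 1.5 times. Over all loci, stage IV against stage I gave 2689 higher and 6260 lower; the higher count was 4438 with median-of-ratios scaling and 953 with the 4-fold rule. The lower count was 3873 with a pseudocount of 5 and 3145 with the 4-fold rule. With a mean of at least 10 it was 3368 of only 8023 loci tested, or 42.0%, against 44.4% in the main setting. Of 160 differences of single genes recomputed, 111 stayed within the range of their bounds and 49 left it, 24 of these under median-of-ratios scaling, while 0 called differences changed sign. The lowest mean among the 10 genes was 10.3 FPKM, for anapc2. All 10 passed every filter tried, so the filters could not change the counts among them. This includes a filter that leaves out the stage III library, added after the data were seen and run only for comparisons without that library. Depth limits the stage IV values of fzr1 and anapc2 most, at 11.1 and 14.2 fragments by their bounds, against at least 148 for the values of the other genes except anapc1 in stage IV. No paired analysis was possible because each oocyte stage has 1 library.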

Other observations

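The genes fbxo5 and anapc1 lie close together on chromosome 13, with 51960 bases between their loci in danRer7. This region was looked at after both were seen to be lower in stage IV. Of the listed loci within 100000 bases of the pair, mtrf1l, for a mitochondrial translation release factor, lies next to fbxo5 (47385611 to 47395174). Its FPKM was 34.7, 25.2, 14.1 and 1.10 over the stages in order, and stage IV differed from stage I by -4.09 in log2(FPKM + 1). By the 2-fold rule 44.4% of all tested loci were lower. Beyond it, tmem63ba was at 10.9 and 12.6 FPKM in stages I and IV, and vip, between the pair, was at 0 in both.

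Of the 4 proliferation markers 2 were higher in stage IV than in stage I and 0 lower, against 19.1% and 44.4% of all loci. Over stages I, II, III and IV mki67 measured 22.1, 31.9, 21.5 and 137 FPKM and top2a 44.2, 64.2, 77.7 and 263, while pcna was at 453 in stage I and 288 in stage IV and ccnd1 at 1.97 and 0.744. The main cyclin target of the complex, ccnb1, chosen after the values were seen, was at 1742, 864, 608 and 2942 FPKM, with its lowest library in stage III.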
